A study of Homo sapiens with 8 samples.

Results

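Mitosis and G2/M genes, the set that carries a cell from the end of DNA replication through chromosome segregation and cytokinesis, were followed in HCT-116 cells after knockdown of HHEX, of YAP1 with WWTR1 (the gene of TAZ), or of the TEAD factors. The set held 47 genes chosen by name, with earlier results of these data known. All 47 were found among the 20030 rows of the deposited tables, and all 47 belonged to the 10677 genes that reached at least 1 FPKM in at least 2 libraries and were tested. FPKM counts the fragments of a gene scaled by the length of its transcript and by the total of the library, so that levels can be set side by side between genes.

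HCT-116 is an epithelial line from a human colorectal carcinoma, and every library came from this single line. The study sequenced RNA in 8 libraries of transfected cells: 2 with a control siRNA (siNC), 3 with siRNA against HHEX (siHHEX), 2 with siRNA pairs for YAP1 and WWTR1 together (siYAP/TAZ) and 1 with siRNA for the TEAD family (siTEAD1/2/3/4). The methods list as many HHEX siRNAs, and as many YAP1 and WWTR1 siRNA pairs, as there are libraries, so replicates within a knockdown may differ in siRNA. The labels do not say that replicates came from separate cultures, so the p-values here measure only the spread between these libraries, which may be technical. No read counts were used, and the depth of each library is unknown. The deposited values of a library summed to between 331663 FPKM (siYAP/TAZ 1) and 383423 FPKM (siHHEX 3).

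The siRNA targets were examined first. HHEX stood at 8.6 and 9.06 FPKM in siNC, 3.25, 3.54 and 1.85 in siHHEX, 4.8 and 7.12 in siYAP/TAZ and 7.75 in siTEAD1/2/3/4, lowest in the 3 siHHEX libraries. WWTR1 was at 6.8 and 6.72 FPKM in siNC, 5.12, 6.12 and 8.55 in siHHEX, 2.64 and 2.58 in siYAP/TAZ and 6.84 in siTEAD1/2/3/4. YAP1 was at 20.2 and 19.7 FPKM in siNC, 5.77, 17.4 and 6.93 in siHHEX, 6.9 and 8.39 in siYAP/TAZ and 22.6 in siTEAD1/2/3/4, so that siHHEX 1 and siHHEX 3 were as low in YAP1 as the siYAP/TAZ libraries while siHHEX 2 was close to siNC. Of the TEAD genes, TEAD4 was at 20.3 and 21.3 FPKM in siNC, 17.6, 19.5 and 20.8 in siHHEX, 12.5 and 13.6 in siYAP/TAZ and 5.56 in siTEAD1/2/3/4. TEAD1 was also lowered in the TEAD library, at 9.02 FPKM against 18.3 and 19.0 in siNC, but the siHHEX libraries held 6.99, 10.2 and 5.30 FPKM of it. TEAD2 was at 2.73 FPKM in the TEAD library against 4.10 and 3.47 in siNC, and TEAD3 at 9.08 against 7.36 and 6.99, so TEAD3 was not lower there. The epithelial markers EPCAM (116 to 174 FPKM), KRT8 (897 to 1757 FPKM) and KRT18 (376 to 917 FPKM) were high in every library, CDH1 stood between 8.16 and 15.7 FPKM, KRT19 ran from 506 to 975 FPKM, CDX2 from 3.86 to 6.24 FPKM, and VIL1 was at 0.0335 FPKM or less. By the limma test described below, KRT8 and KRT18 fell in siYAP/TAZ (log2 fold changes -0.88 and -1.22, adjusted p = 0.00227 and 0.000861). EPCAM and KRT18 fell in siHHEX (-0.38 and -0.29, adjusted p = 0.029 and 0.035). Among markers of other cells, PTPRC was at 0.101 FPKM or less, PECAM1 at 0.0292 FPKM or less, ALB at 0.0813 FPKM or less, DES from 0.613 to 1 FPKM, COL1A1 from 0.647 to 2.04 FPKM, and HBB was listed at 0 throughout.

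Entry into mitosis is driven by the kinase CDK1 bound to cyclin B or cyclin A. CDC25 phosphatases activate the complex and WEE1 and PKMYT1 restrain it. Once the nuclear envelope has broken down, kinetochores attach chromosomes to the spindle, and the spindle checkpoint holds back the anaphase-promoting complex until every kinetochore is attached. Many of these genes are transcribed together late in the cell cycle: the MuvB core complex joins the repressive DREAM complex in quiescent cells and later associates with MYBL2 (B-Myb) and FOXM1, and it reaches promoters through a short element called the cell cycle genes homology region (CHR), often near CCAAT boxes bound by NF-Y. TEAD factors bind DNA themselves and use the coactivators YAP and TAZ, and mitotic genes have been described among the genes that YAP and TAZ control in cancer cells. HHEX is a homeobox transcription factor.

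The CHR is the sequence feature by which these promoters are best known, so the promoter windows of the set were searched for it. The RefSeq promoter table (GRCh38.p14, 250 bases before to 50 bases after each transcript start) matched 40 of the 47 genes, and 34 of these have 1 listed promoter. TTTGAA or TTCGAA, sought on both strands, occurred in a listed promoter of 31 of the 40 genes (77.5%), against 19.6% of all 27167 genes in the table and 14.5% of the 8451 tested genes in it. Within 50 bases of the start the shares were 67.5% for the set and 6.26% for all genes. The CCAAT word, on both strands, occurred in 33 of the 40 (82.5%) against 39.8%, and 21 (52.5%) held at least 2 of them against 12.9%. GGAATG, the core word of TEAD sites, occurred in 7 (17.5%) against 16.7%. The words may overlap by a few bases, and a match describes the letters of the window, not binding.

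The windows below come from the promoters of genes that fell in a knockdown, described further on. Each runs 5′ to 3′ along the strand of its gene, with the CHR word in capitals. The first 4 belong to genes that fell in siYAP/TAZ, KIF23 among them having fallen in siHHEX as well, and the others to genes that fell in siHHEX. In KIF11 the capitals show the reverse complement of TTTGAA, and in BUB1 they show the TTCGAA form.
PLK1, chr16:23678848-23678877, plus strand: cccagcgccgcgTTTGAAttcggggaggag
CDC20, chr1:43358904-43358933, plus strand: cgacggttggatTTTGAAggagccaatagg
CDCA8, chr1:37692481-37692510, plus strand: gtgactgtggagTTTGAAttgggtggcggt
KIF23, chr15:69414282-69414311, plus strand: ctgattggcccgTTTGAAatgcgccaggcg
ANLN, chr7:36389830-36389859, plus strand: ctgaaattcaaaTTTGAAcggctgcagagg
BUB1, chr2:110678045-110678074, minus strand: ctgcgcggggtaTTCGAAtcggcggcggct
KIF11, chr10:92593090-92593119, plus strand: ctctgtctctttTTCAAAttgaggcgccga
NUF2, chr1:163321958-163321987, plus strand: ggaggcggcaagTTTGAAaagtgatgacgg
PRC1, chr15:90994538-90994567, minus strand: cccgtggcgcggTTTGAAattttgcggggc
NUSAP1, chr15:41332882-41332911, plus strand: tggcgccagggaTTTGAAccgcgctgacga

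**Figure D1:**
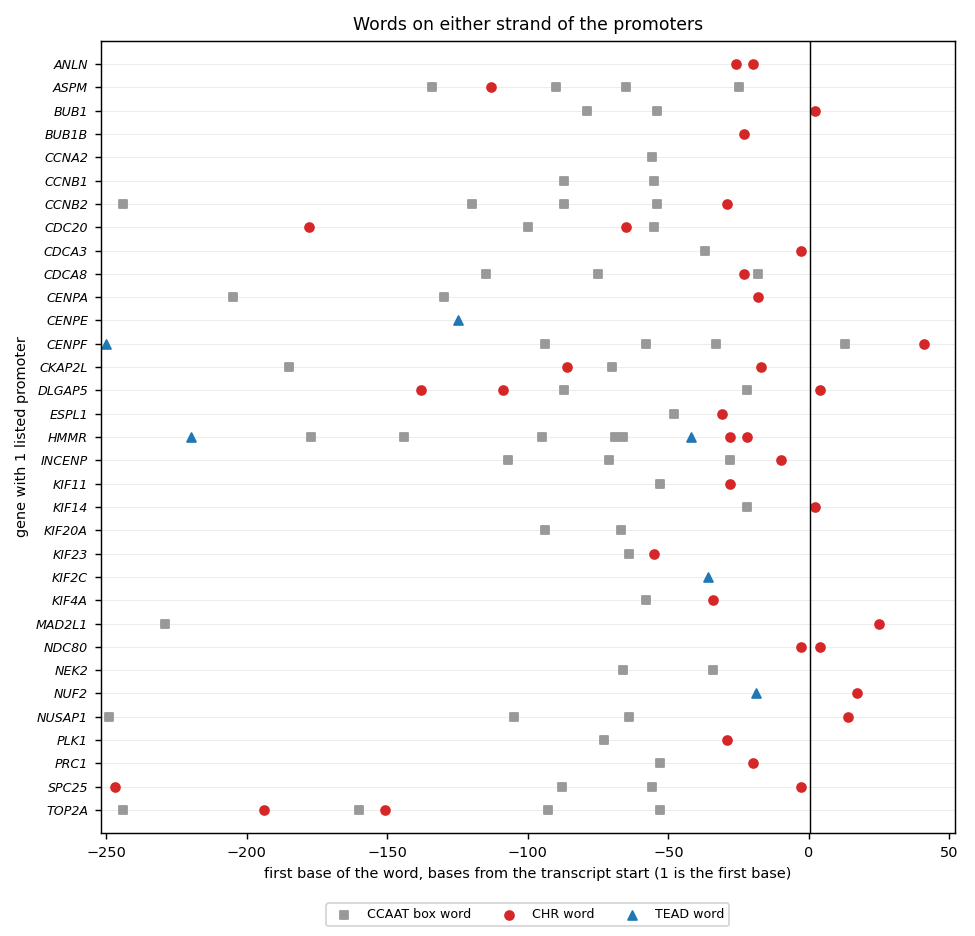
Positions of 3 promoter words in the 33 genes of the set that have 1 listed promoter and hold at least 1 of the words, with the distance of the word's first base from the transcript start in bases on the x axis and a gene per row. Red circles mark the CHR word, grey squares the CCAAT word and blue triangles the TEAD word, and most red circles lie close to the start.

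In PLK1 the word begins 29 bases before the transcript start, in CDCA8 23 bases and in PRC1 20 bases before it, while in NUF2 it begins at base 17 and in NUSAP1 at base 14 of the transcript. CCNA2, CCNB1, CENPE, KIF20A, KIF2C, MYBL2 and NEK2 have 1 listed promoter without a CHR word. The 31 genes with the word had a median log2 change of -0.46 in siHHEX and -0.061 in siYAP/TAZ, and the 9 genes without it -0.18 and -0.24. After removal of the trend on GC content and length, described with the siHHEX results, the medians were -0.17 with the word and -0.13 without it in siHHEX, and -0.19 and -0.33 in siYAP/TAZ. The medians are a description, and their difference was not tested.

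The first question was whether loss of HHEX changed the mitotic genes. In siHHEX, 19 of the 47 genes fell (40.4%), with ECT2, ANLN, TOP2A, NEK2 and CCNA2 the furthest, and 2 rose, MYBL2 and BIRC5. Over all 10677 tested genes, 16.9% fell and 16.0% rose. The calls come from limma on log2(FPKM + 1) at an adjusted p under 0.05 over all tested genes, and fold changes are given on that scale, which understates the change of low genes. The median change of the 47 genes was -0.30 against -0.0055 for all tested genes and -0.0086 for the 8707 tested genes whose mean level lay in the same range, 2.10 to 208 FPKM. In 28 genes (59.6%) every siHHEX library lay below both siNC libraries, and in 7 (14.9%) every one lay above, against 33.8% and 33.1% of all tested genes. In bulk RNA, fewer cells in G2 and mitosis and less mRNA per cell cannot be told apart.

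The median changes of the 3 siHHEX libraries were -0.37, -0.21 and -0.40 as measured. After removal of the trend on GC content and length, described in the next paragraph, they were -0.12, -0.16 and -0.18, so that siHHEX 2 was the mildest before and siHHEX 1 after it. Of the 3, siHHEX 3 held the lowest value of 24 genes and siHHEX 2 the highest value of 24, and for 21 genes siHHEX 3 was the lowest of all 8 libraries. The label of siHHEX 3 gives its knockdown under a different heading from the other libraries. Its sample number also stands far from theirs, which nearly follow each other. Whether siHHEX 3 was prepared apart from them is not given. Without siHHEX 3, 16 genes fell and 2 rose, with a median of -0.25, where 1230 of all tested genes fell and 1284 rose. The summed level of the 47 genes was 2060.0 and 2048 FPKM in siNC, 1790.0, 1799 and 1757 FPKM in siHHEX, 1653 and 1733 FPKM in siYAP/TAZ and 1913 FPKM in siTEAD1/2/3/4. All 3 siHHEX sums were thus below both siNC sums. YAP1 was close to siNC in siHHEX 2 alone of the 3, and the part of YAP1 in the changes was not tested.

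These calls were examined against the GC content and length of the transcripts. In siHHEX 1, 2 and 3, GC content and length accounted for 47.3%, 34.4% and 57.3% of the variance of the changes of all genes, against 2.21% and 0.666% in siYAP/TAZ and 8.97% in siTEAD1/2/3/4. The transcripts of the set had a median GC content of 42.1% (35.1 to 60.04%) against 49.1% for all tested genes. After each library's trend on GC content and length was removed, 5 genes were lower in siHHEX (ANLN, BUB1, CCNA2, CDC20 and ECT2, 10.6% of the set against 3.19% of all genes), and 2 were higher (BIRC5 and CENPE, against 3.55%). The median became -0.17 against 0.00054 for all genes, with 36 of the 47 genes below 0 before and after. ANLN, BUB1, CCNA2, ECT2 and BIRC5 were called both ways, and the calls of the other 15 genes that fell and of MYBL2 were lost. With a block for replicate number (replicate block) added to the correction, no gene of the set was called. Over all genes 113 were then lower and 73 higher. In that fit ECT2 still changed by -0.61 and BIRC5 by 0.45. Only siHHEX 3 carries replicate number 3, so the block takes that library out of the siHHEX change. Fits with the block also leave out siTEAD1/2/3/4. GC content and length were removed together, and the part of either alone was not tested. The trend was strongest in the siHHEX libraries, so any response to the knockdown that follows GC content or length was removed with it. Such a response and a difference between libraries cannot be told apart here. Single libraries were left out in turn only in the fit without the correction. Without siNC 1 or without siNC 2, no gene of the set passed the adjusted threshold in siHHEX, with 16 and 18 of them lower at an unadjusted p under 0.05, and 9 to 15 genes of the whole table called in each direction. Without siHHEX 2, 24 genes of the set fell and 4 rose, where 2661 of all tested genes fell and 2178 rose.

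**Figure D2:**
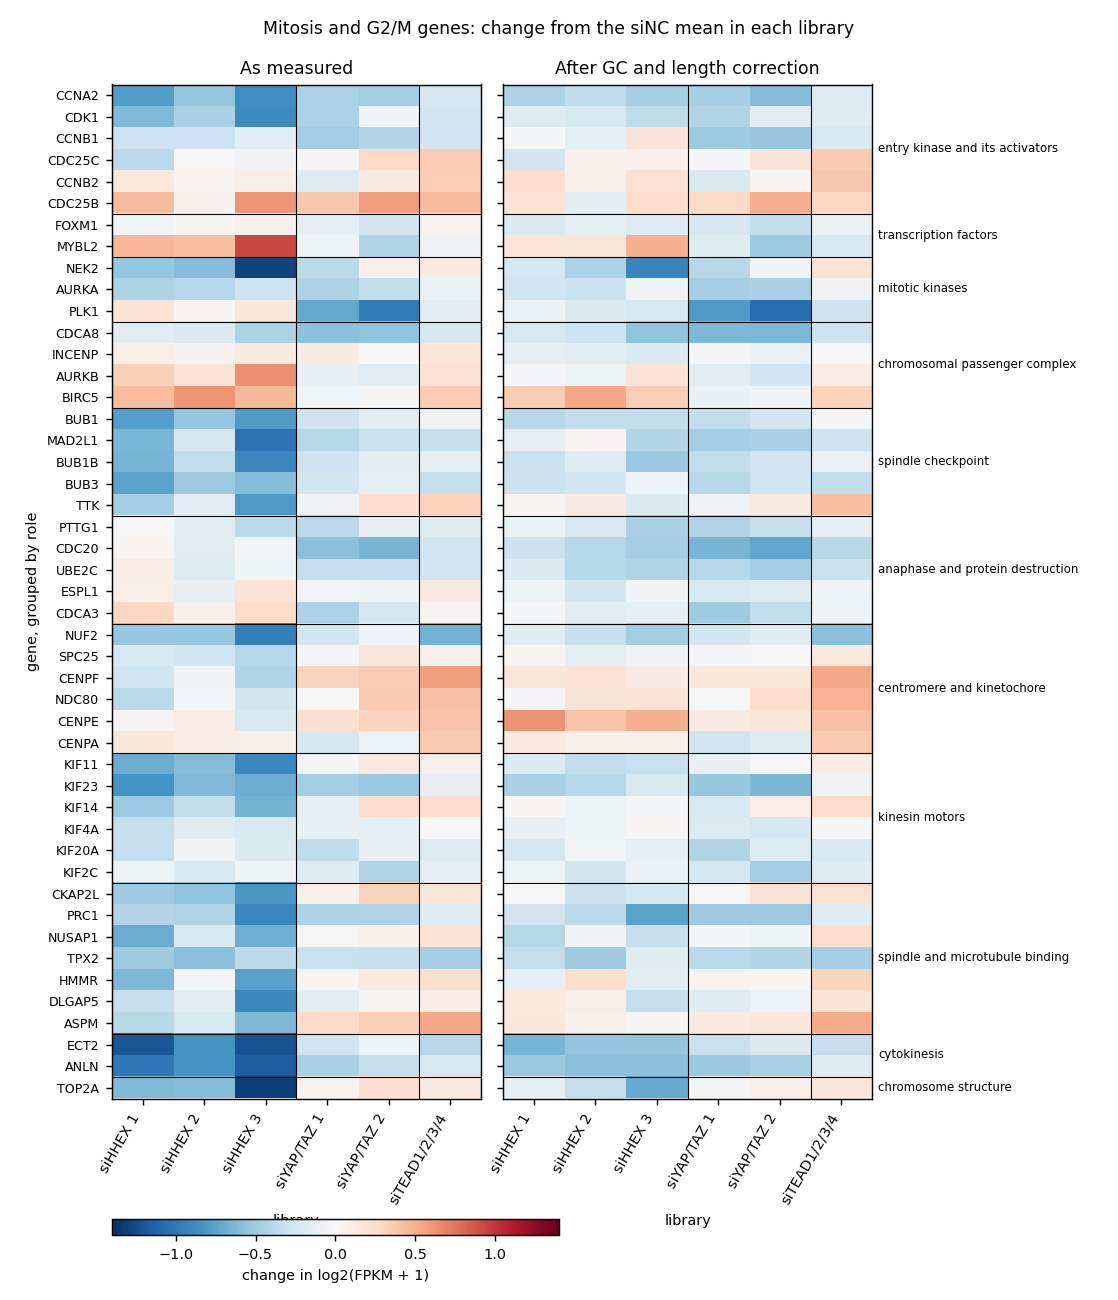
Change of each of the 47 genes from the siNC mean in the 6 knockdown libraries, as measured on the left and after removal of the trend on GC content and length on the right, coloured by the change in log2(FPKM + 1) with blue below siNC and red above. Rows are grouped by role, and ECT2 and ANLN are blue in all 3 siHHEX libraries in both panels while PLK1 and CDC20 are darkest in siYAP/TAZ.

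The entry kinase and its activators comprised CDK1, the cyclins CCNA2, CCNB1 and CCNB2, and the phosphatases CDC25B and CDC25C. CCNA2, which activates CDK1 in G2 and also CDK2 in S phase, was at 67.1 and 66.7 FPKM in siNC, 38.4, 45.5 and 36.1 in siHHEX, 49 and 47.4 in siYAP/TAZ and 56.9 in siTEAD1/2/3/4. It fell in siHHEX (log2 fold change -0.73 ± 0.123 (SE), adjusted p = 0.00645), and the siYAP/TAZ libraries also lay below both siNC libraries without passing the test. CDK1 was at 49 and 45.3 FPKM in siNC, 30.4, 34.2 and 24.9 in siHHEX, 34.4 and 45.6 in siYAP/TAZ and 39 in siTEAD1/2/3/4 and fell in siHHEX (log2 fold change -0.65 ± 0.164 (SE), adjusted p = 0.0183), with siYAP/TAZ 2 inside the siNC range. After the correction the siHHEX call of CDK1 was lost, at -0.25 (adjusted p = 0.18), and that of CCNA2 stood at -0.42 (adjusted p = 0.0351). CCNB1, the cyclin that carries CDK1 into mitosis, was at 166 and 161 FPKM in siNC, 133, 133 and 146 in siHHEX, 117 and 123 in siYAP/TAZ and 136 in siTEAD1/2/3/4. Its siYAP/TAZ libraries were the lowest of all and the change passed the test (log2 fold change -0.45 ± 0.107 (SE), adjusted p = 0.038), while the siHHEX libraries also lay below siNC. CCNB2 ran from 35.9 to 52.2 FPKM and CDC25C from 3.19 to 5.93 FPKM, with no call. CDC25B, at 47.2 and 47.7 FPKM in siNC, 64.9, 49.6 and 73.2 in siHHEX, 61.8 and 71.7 in siYAP/TAZ and 65 in siTEAD1/2/3/4, lay above both siNC libraries in every knockdown library, and its siYAP/TAZ change did not pass (log2 fold change 0.48 ± 0.176 (SE), adjusted p = 0.117).

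FOXM1 and MYBL2 are the transcription factors that act with MuvB on these promoters. FOXM1 was at 37.7 and 40.9 FPKM in siNC, 38.3, 39.8 and 41.1 in siHHEX, 35.6 and 32.4 in siYAP/TAZ and 40.2 in siTEAD1/2/3/4, and the siHHEX libraries overlapped siNC. MYBL2 was at 59.1 and 62.4 FPKM in siNC, 84.2, 81.8 and 117 in siHHEX, 57.7 and 45.3 in siYAP/TAZ and 58.5 in siTEAD1/2/3/4 and rose in siHHEX (log2 fold change 0.61 ± 0.171 (SE), adjusted p = 0.0267), with the 3 siHHEX libraries above every other library. After the GC and length correction its change was 0.29 (adjusted p = 0.225). The MYBL2 call was also lost with a replicate block (0.44) and with no filter on low values. MYBL2 had the highest GC content of the set, 60%.

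Of the mitotic kinases PLK1, AURKA and NEK2, PLK1 was lowest in siYAP/TAZ and the other 2 genes fell in siHHEX, where 16.9% of all tested genes did. Neither of these calls remained after the correction, with changes of -0.21 (adjusted p = 0.228) for AURKA and -0.54 (adjusted p = 0.122) for NEK2. PLK1, which acts from mitotic entry to cytokinesis and lies on GRCh38 at chr16:23677656-23690367 (plus strand), was at 99.1 and 108 FPKM in siNC, 119, 105 and 116 in siHHEX, 62.7 and 52.1 in siYAP/TAZ and 92.6 in siTEAD1/2/3/4. In siYAP/TAZ its mean came to 55.3% of that in siNC, the deepest fall of the set in that knockdown (log2 fold change -0.85 ± 0.131 (SE), adjusted p = 0.01), while the siHHEX libraries overlapped siNC. AURKA, the kinase of spindle poles, was at 42.6 and 39.8 FPKM in siNC, 30, 31 and 33.4 in siHHEX, 29.9 and 32.1 in siYAP/TAZ and 38.7 in siTEAD1/2/3/4, with siHHEX and siYAP/TAZ both below siNC and the siHHEX change called. NEK2, which separates the centrosomes, was at 16.7 and 14.6 FPKM in siNC, 10.4, 9.9 and 5.78 in siHHEX, 11.8 and 16.4 in siYAP/TAZ and 17.2 in siTEAD1/2/3/4. It fell in siHHEX (log2 fold change -0.81 ± 0.230 (SE), adjusted p = 0.0271), with siHHEX 3 well below the other siHHEX libraries, and siYAP/TAZ overlapped siNC. The NEK2 call was also lost with a replicate block (-0.58) and with no filter on low values.

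The chromosomal passenger complex joins the kinase AURKB to INCENP, BIRC5 (survivin) and CDCA8 (borealin), and corrects faulty attachments at the centromere. BIRC5 was at 76.8 and 80.8 FPKM in siNC, 106, 122 and 109 in siHHEX, 76.6 and 79.6 in siYAP/TAZ and 101 in siTEAD1/2/3/4 and rose in siHHEX (log2 fold change 0.50 ± 0.106 (SE), adjusted p = 0.0111). The change of BIRC5 after the GC and length correction was 0.42 (adjusted p = 0.0396). AURKB was at 19 and 21.3 FPKM in siNC, 25.5, 23 and 31.8 in siHHEX, 18.7 and 17.9 in siYAP/TAZ and 23.3 in siTEAD1/2/3/4, with all siHHEX libraries above siNC, and did not pass the test (log2 fold change 0.38 ± 0.147 (SE), adjusted p = 0.0706), its sign turning to -0.049 when the correction was combined with a replicate block. CDCA8 was at 47.6 and 49.8 FPKM in siNC, 44, 42.1 and 35.6 in siHHEX, 32.5 and 32.6 in siYAP/TAZ and 41.1 in siTEAD1/2/3/4 and fell in siYAP/TAZ (log2 fold change -0.57 ± 0.134 (SE), adjusted p = 0.0359). INCENP ran from 11.8 to 13.7 FPKM. In siHHEX BIRC5 was the only call of the complex and in siYAP/TAZ CDCA8 was, in opposite directions. Of all tested genes, 16.0% rose in siHHEX and 2.13% fell in siYAP/TAZ.

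Of the spindle checkpoint genes, which delay anaphase, 4 of 5 fell in siHHEX, against 16.9% of all tested genes, with a median of -0.64 for the 5. BUB1, a checkpoint kinase at kinetochores, was at 33.7 and 32.9 FPKM in siNC, 19.1, 22.6 and 18.8 in siHHEX, 27.1 and 29.9 in siYAP/TAZ and 31.9 in siTEAD1/2/3/4 (log2 fold change -0.70 ± 0.124 (SE), adjusted p = 0.00725). BUB3, which recruits BUB1 and BUB1B, was at 131 and 128 FPKM in siNC, 76.8, 90.8 and 84.6 in siHHEX, 108 and 119 in siYAP/TAZ and 103 in siTEAD1/2/3/4. MAD2L1, the inhibitor of CDC20, was at 126 and 115 FPKM in siNC, 76.6, 102 and 58.2 in siHHEX, 90.5 and 96.3 in siYAP/TAZ and 95.3 in siTEAD1/2/3/4. In all 3 genes each siHHEX library lay below both siNC libraries, and so did each siYAP/TAZ library, but none was called in siYAP/TAZ. BUB1B (16.2 to 32.8 FPKM) was called in siHHEX and the kinase TTK (6.1 to 14.6 FPKM) was not. The 5 genes had a median GC content of 41.1%, and after the correction their median in siHHEX was -0.21, with BUB1 alone still called, at -0.36 (adjusted p = 0.0494).

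Of the 5 genes of anaphase and protein destruction, CDC20 fell in siYAP/TAZ, where 2.13% of all tested genes fell. None was called in siHHEX before the correction, where 16.9% of all tested genes fell and 16.0% rose. CDC20, the activator of the anaphase-promoting complex, was at 231 and 243 FPKM in siNC, 242, 214 and 231 in siHHEX, 157 and 151 in siYAP/TAZ and 197 in siTEAD1/2/3/4. The siYAP/TAZ libraries were far below all the others (log2 fold change -0.62 ± 0.106 (SE), adjusted p = 0.0148), and siHHEX overlapped siNC. After the correction CDC20 was called lower in both, with changes of -0.39 (adjusted p = 0.0351) in siHHEX and -0.69 (adjusted p = 0.00637) in siYAP/TAZ. PTTG1 (securin), which holds separase back, was at 82.6 and 76.8 FPKM in siNC, 79.7, 71 and 61.5 in siHHEX, 60.9 and 72.9 in siYAP/TAZ and 70.7 in siTEAD1/2/3/4, with both siYAP/TAZ libraries below siNC and siHHEX 1 inside the siNC range. UBE2C, the ubiquitin-conjugating enzyme of the complex, ran from 54.3 to 74.3 FPKM, ESPL1 (separase) from 15.8 to 19.6 FPKM and CDCA3 from 16.6 to 28.5 FPKM. UBE2C and CDCA3 lay below siNC in both siYAP/TAZ libraries, and both were called there only after the correction.

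Of the 6 centromere and kinetochore genes, NUF2 alone was called in siHHEX, a share near the 16.9% of all tested genes that fell, and none in siYAP/TAZ, where 2.13% fell and 6.15% rose. CENPA, the histone variant that marks the centromere, was at 19.2 and 17.5 FPKM in siNC, 20.5, 19.7 and 19.5 in siHHEX, 15.3 and 17.2 in siYAP/TAZ and 23.8 in siTEAD1/2/3/4. CENPE, a kinetochore motor, was the least abundant gene of the set, at 1.79 and 1.91 FPKM in siNC, 1.93, 2.06 and 1.46 in siHHEX, 2.33 and 2.57 in siYAP/TAZ and 2.75 in siTEAD1/2/3/4. CENPF was at 9.45 and 10.7 FPKM in siNC, 8.13, 9.71 and 7.25 in siHHEX, 12.8 and 13.2 in siYAP/TAZ and 15.4 in siTEAD1/2/3/4. The siYAP/TAZ libraries lay above siNC for CENPE and CENPF, and CENPF did not pass (log2 fold change 0.34 ± 0.154 (SE), adjusted p = 0.196), while CENPE, the transcript of lowest GC content (35%), was called higher in siHHEX only after the correction, at 0.51 (adjusted p = 0.0364). NUF2, NDC80 and SPC25 build the NDC80 complex, which binds microtubules. NUF2 was at 13.2 and 12.7 FPKM in siNC, 8.62, 8.61 and 6.19 in siHHEX, 10.7 and 12.5 in siYAP/TAZ and 7.78 in siTEAD1/2/3/4 and fell in siHHEX (log2 fold change -0.67 ± 0.157 (SE), adjusted p = 0.0148), without overlap. After the correction the NUF2 call was lost, at -0.33 (adjusted p = 0.119). NDC80 ran from 10.8 to 19.3 FPKM and SPC25 from 18.9 to 28.1 FPKM, neither called.

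Among the kinesin motors, 3 of 6 fell in siHHEX, where 16.9% of all tested genes did, and none of the 3 calls remained after the correction. KIF11 (Eg5), which pushes the spindle poles apart, was at 16 and 14.3 FPKM in siNC, 8.97, 9.62 and 7.66 in siHHEX, 14.8 and 16.8 in siYAP/TAZ and 15.9 in siTEAD1/2/3/4. It fell in siHHEX (log2 fold change -0.73 ± 0.136 (SE), adjusted p = 0.00813), and siYAP/TAZ stayed close to siNC. Its corrected siHHEX change was -0.28 (adjusted p = 0.123). KIF23, a subunit of centralspindlin at the midzone, was at 26 and 24.3 FPKM in siNC, 13.6, 16.1 and 15.2 in siHHEX, 17.7 and 17.2 in siYAP/TAZ and 23.1 in siTEAD1/2/3/4. It fell in siHHEX (log2 fold change -0.72 ± 0.120 (SE), adjusted p = 0.00645) and in siYAP/TAZ (log2 fold change -0.50 ± 0.131 (SE), adjusted p = 0.0476), the only gene called in both before the correction, and both knockdowns were compared with the same siNC libraries. The siYAP/TAZ call was lost with a pseudocount of 0.1, a replicate block or no filter on low values. It was also lost with scaling to a common sum and without siHHEX 1. After the correction the siHHEX change of KIF23 was -0.36 (adjusted p = 0.076), and ANLN, CCNA2 and CDC20 were the genes called lower in both. KIF20A, which works in cytokinesis, was at 29.2 and 28.4 FPKM in siNC, 22.7, 27.5 and 24.9 in siHHEX, 22.2 and 26.5 in siYAP/TAZ and 25.1 in siTEAD1/2/3/4 and was not called. KIF14 (2.26 to 5.13 FPKM), another cytokinesis motor, was called in siHHEX before the correction, which brought its change to -0.03 (adjusted p = 0.918), and KIF2C (29 to 39.5 FPKM) and KIF4A (11.9 to 15.5 FPKM) were not.

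Of the 7 spindle and microtubule-binding genes, TPX2, NUSAP1, PRC1 and CKAP2L fell in siHHEX, against 16.9% of all tested genes. None of these 4 calls remained after the correction, with changes of -0.34 (adjusted p = 0.0963) for TPX2, -0.26 (adjusted p = 0.204) for NUSAP1, -0.46 (adjusted p = 0.0861) for PRC1 and -0.18 (adjusted p = 0.381) for CKAP2L. TPX2, which activates AURKA and helps microtubules to form, was at 85.8 and 82.2 FPKM in siNC, 58.7, 55.6 and 64.8 in siHHEX, 67.6 and 67 in siYAP/TAZ and 60.4 in siTEAD1/2/3/4, with every knockdown library below siNC. ASPM, a spindle-pole protein, was at 3.27 and 3.68 FPKM in siNC, 2.42, 2.84 and 1.88 in siHHEX, 4.42 and 4.69 in siYAP/TAZ and 5.47 in siTEAD1/2/3/4. Its siHHEX libraries lay below siNC and its siYAP/TAZ libraries above, the latter without passing (log2 fold change 0.31 ± 0.161 (SE), adjusted p = 0.242). NUSAP1 ran from 23.4 to 44.1 FPKM, PRC1, the microtubule bundler of the midzone, from 26.1 to 50.5 FPKM, and CKAP2L from 2.92 to 7.6 FPKM. DLGAP5 (8.42 to 17.9 FPKM) and HMMR (6.84 to 14.5 FPKM) were not called.

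The cytokinesis genes ECT2 and ANLN had the lowest changes of the set in siHHEX. ECT2, the exchange factor that activates RHOA at the cleavage furrow, lies on GRCh38 at chr3:172750682-172821474 (plus strand) and was at 19.5 and 19 FPKM in siNC, 7.81, 10.3 and 7.78 in siHHEX, 15.7 and 18.2 in siYAP/TAZ and 14.5 in siTEAD1/2/3/4. In siHHEX its mean came to 44.9% of that in siNC (log2 fold change -1.08 ± 0.148 (SE), adjusted p = 0.00387), with no siHHEX library near siNC. ANLN (anillin), a scaffold of the contractile ring at chr7:36389821-36453791 (plus strand), was at 42.8 and 42.4 FPKM in siNC, 20.9, 23.4 and 18.6 in siHHEX, 30.7 and 34 in siYAP/TAZ and 36.4 in siTEAD1/2/3/4, and fell in siHHEX (log2 fold change -0.99 ± 0.127 (SE), adjusted p = 0.00384). After the correction ECT2 changed by -0.59 (adjusted p = 0.0173) and ANLN by -0.56 (adjusted p = 0.0157). TOP2A, the topoisomerase that untangles sister chromatids, was at 29.7 and 27.7 FPKM in siNC, 18.3, 18.5 and 10.9 in siHHEX, 29.8 and 34 in siYAP/TAZ and 31.6 in siTEAD1/2/3/4 and fell in siHHEX (log2 fold change -0.84 ± 0.206 (SE), adjusted p = 0.0168), with siHHEX 3 far below siHHEX 1 and 2 and with siYAP/TAZ above siNC. Its corrected change was -0.38 (adjusted p = 0.168).

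**Figure D3:**
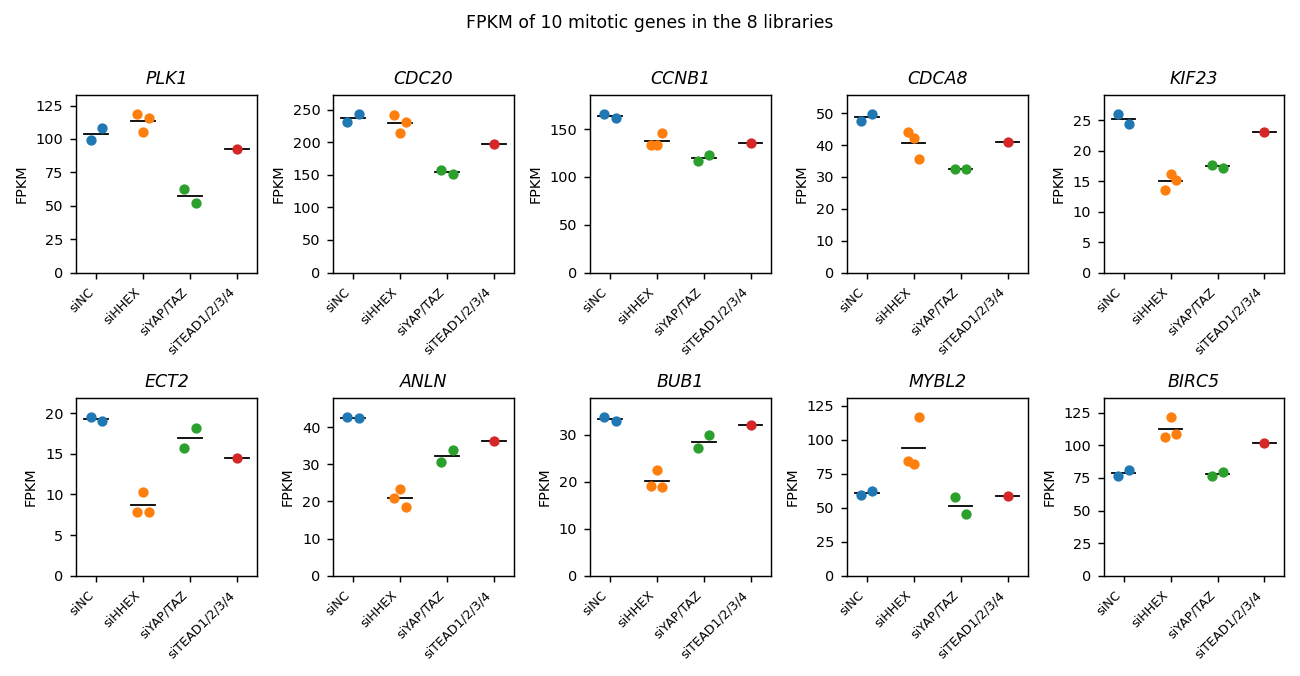
FPKM of 10 genes in each library, with a point per library, a horizontal line at the group mean and a y axis from 0 in every panel. PLK1, CDC20, CCNB1 and CDCA8 are lowest in siYAP/TAZ, ECT2, ANLN and BUB1 are lowest in siHHEX, KIF23 is low in both, and MYBL2 and BIRC5 are highest in siHHEX.

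The second question was what loss of YAP and TAZ did to the same genes. In siYAP/TAZ, PLK1, CDC20, CDCA8, KIF23 and CCNB1 fell (10.6% of the set) and no gene rose by the limma test, with 1 higher at an unadjusted p under 0.05. Of all tested genes 2.13% fell and 6.15% rose, while every call in the set was a fall. Its median change was -0.16 against 0.082 for all tested genes and 0.053 for genes in the same range of levels, and the medians of the 2 libraries were -0.18 and -0.085. In 26 genes (55.3%) both siYAP/TAZ libraries lay below both siNC libraries, against 24.8% of all tested genes. In 7 (14.9%) both lay above, against 42.9%, and these were ASPM, CDC25B, CENPE, CENPF, CKAP2L, HMMR and TOP2A. Of the 5 falls in the fit without the GC and length correction, none passed the adjusted threshold without siNC 1, without siNC 2 or without siYAP/TAZ 2, where 6, 7 and 9 genes of the set were lower at an unadjusted p under 0.05. Without siHHEX 1 the count was 3, where 174 of all tested genes fell. Without siYAP/TAZ 1, which leaves 1 siYAP/TAZ library, the calls of CDCA8 (-0.565), KIF23 (-0.52) and CCNB1 (-0.41) were lost.

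After the GC and length correction 10 genes fell in siYAP/TAZ (21.3% against 6.16% of all genes) and none rose (against 5.34%, with 1 higher at an unadjusted p under 0.05). Single libraries were not left out in turn in the corrected fit. The 10 were the same 5 with ANLN, AURKA, CCNA2, CDCA3 and UBE2C, and the median moved to -0.23 with 37 genes below 0. The correction also moved the median of all tested genes, from 0.082 to -0.020. Median scaling without the correction gave 7 falls in the set, where 337 of all tested genes fell and 350 rose.

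The criterion of the study was a fold change over 2 with p under 0.05, the p being taken here as unadjusted. With the fold on log2(FPKM + 1), 1 gene of the set met it in siHHEX, ECT2, which was lower, and none met it in the other direction or in siYAP/TAZ. Over all tested genes 0.927% were lower and 0.702% higher on that scale in siHHEX, and 0.431% and 1.14% in siYAP/TAZ. With the fold taken from the mean FPKM instead, a choice made after seeing the data, ANLN met it as well, its siHHEX mean standing at 49.2% of that in siNC, and again none met it in the other direction or in siYAP/TAZ. The shares of all tested genes were then 2.32% lower and 2.44% higher in siHHEX, and 0.702% and 4.8% in siYAP/TAZ.

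The 2 knockdowns were compared directly in the same fit. In siHHEX relative to siYAP/TAZ, 15 genes were lower (31.9% against 25.9% of all tested genes) and 6 were higher (12.8% against 13.5%), shares near those of the table as a whole. The lower genes were ANLN, ASPM, BUB1, BUB3, CENPF, CKAP2L, ECT2, KIF11, KIF14, NEK2, NUF2, NUSAP1, SPC25, TOP2A and TTK. The higher ones were AURKB, BIRC5, CDC20, CDCA3, MYBL2 and PLK1. Without siYAP/TAZ 2, which leaves a single siYAP/TAZ library, most of the lower calls were lost, in the set and among all tested genes alike. The median change of the set was then -0.21 against -0.11 for all tested genes. With all libraries it was -0.27 against -0.13. Scaling each library to a common median gave 11 lower and 11 higher, and scaling to a common sum (TPM) gave 23 and 5. All tested genes moved the same way, with 1841 lower and 2034 higher under median scaling and 3903 and 857 under TPM scaling. After the GC and length correction no gene of the set was lower (against 3.36% of all genes), with 4 lower at an unadjusted p under 0.05, and BIRC5, CCNB1, MYBL2 and PLK1 were higher (8.51% against 5.52%). PLK1 thus stood lower in siYAP/TAZ than in siHHEX with and without the correction.

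**Figure D4:**
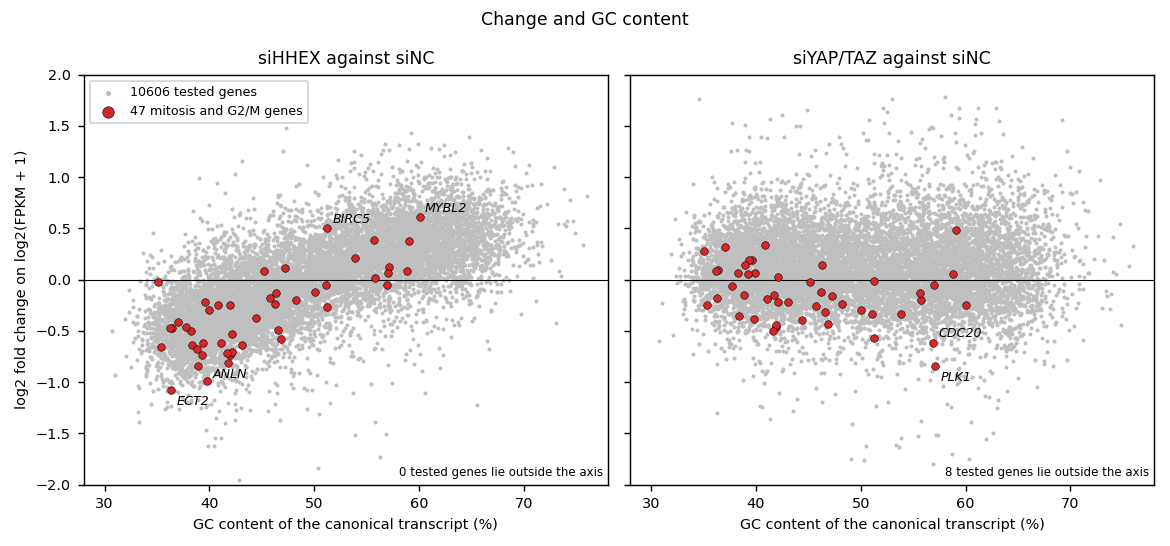
Log2 fold change on log2(FPKM + 1) in siHHEX (left) and siYAP/TAZ (right) against the GC content of the canonical transcript in percent, with 10606 tested genes in grey and the 47 mitosis and G2/M genes in red. In siHHEX both clouds climb from left to right, and in siYAP/TAZ they do not, with PLK1 and CDC20 low at high GC content.

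The relation of change to GC content was set side by side for the set and for all tested genes. Spearman's rho across the 47 genes was 0.67, 0.49 and 0.75 in siHHEX 1, 2 and 3, and 0.68, 0.60 and 0.76 across 10606 tested genes. It was -0.18 and -0.48 within the set in siYAP/TAZ and -0.05 in siTEAD1/2/3/4, where across all tested genes it was 0.060 and -0.051 in siYAP/TAZ and 0.30 in siTEAD1/2/3/4. The genes share their libraries, so these values are descriptions. By class of GC content, the median siHHEX change of the set was -0.56 in the 16 genes under 40%, where that of all tested genes was -0.45. It was -0.63 against -0.31 in the 10 genes from 40 to 45%, -0.19 against -0.092 in the 8 from 45 to 50%, and 0.087 against 0.29 in the 13 at 50% or above. The set was therefore below all tested genes in each class. In siYAP/TAZ its median was 0.062 under 40% and -0.22, -0.20 and -0.24 in the other classes, while all tested genes stood between 0.076 and 0.088 in every class.

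The single siTEAD1/2/3/4 library has no replicate and no test. By the mark of a 1.5-fold change, NUF2 (2.13% of the set) was lower and no gene was higher, against 2.18% and 4.15% of all tested genes. The 3 lowest changes were -0.67 for NUF2, -0.47 for TPX2 and -0.39 for ECT2, and the 3 highest were 0.57 for CENPF, 0.53 for ASPM and 0.45 for CDC25B. The median change of the set was 0.034 against 0.060 for all tested genes, and its sign turned with the GC and length correction (-0.045), with median scaling (-0.028) and with siNC 2 as the only control (-0.011). This library held the highest value of all 8 for 13 genes of the set. PLK1 stood at 92.6 FPKM and CDC20 at 197 FPKM, both below the siNC libraries and above the siYAP/TAZ libraries.

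Other genes of mitosis, 133 in lists drawn up by function with earlier results of these data known, were all tested. In siHHEX 53 fell and 8 rose, with a median of -0.32, and in siYAP/TAZ 6 fell and 3 rose, with a median of -0.0036. Of all tested genes 16.9% fell and 16.0% rose in siHHEX, and 2.13% and 6.15% in siYAP/TAZ. After the correction 7 fell and 3 rose in siHHEX, where 3.19% and 3.55% of all genes did, and 10 fell and 2 rose in siYAP/TAZ, where 6.16% and 5.34% did. Among 18 condensin and cohesin genes, which compact and hold the chromatids, 12 fell and 1 rose in siHHEX. Their median of -0.47 became -0.078 after the correction. Of 42 other spindle, centrosome and cytokinesis genes 21 fell and 2 rose, and 6 falls remained, in KIF18B, SPAG5, KNSTRN, CEP55, RACGAP1 and PBK. Of 31 other kinetochore and centromere genes 9 fell and 4 rose, of 17 genes of the anaphase-promoting complex 4 fell and 1 rose, a share of falls near that of all tested genes, and of 12 genes of MuvB and DREAM 3 fell. No fall by the limma test remained after the correction in these 3 lists or among the condensin and cohesin genes. The genes lower at an unadjusted p under 0.05 were then 2 of the kinetochore and centromere list, 1 of the anaphase-promoting complex, 2 of MuvB and DREAM and 5 of condensin and cohesin, while 2 kinetochore genes and 1 gene of MuvB and DREAM passed the adjusted threshold as higher.

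SPC24, the partner of SPC25, had the highest change among these other genes in siHHEX, at 7.04 and 8.43 FPKM in siNC, 15.9, 12.8 and 14.3 in siHHEX, 9.03 and 8.5 in siYAP/TAZ and 11.4 in siTEAD1/2/3/4 (log2 fold change 0.81 ± 0.137 (SE), adjusted p = 0.00656). ANAPC11, the RING subunit of the anaphase-promoting complex, followed at 14.8 and 14.8 FPKM in siNC, 29.7, 19.8 and 30.8 in siHHEX, 14.3 and 15.5 in siYAP/TAZ and 17.6 in siTEAD1/2/3/4 (log2 fold change 0.78 ± 0.181 (SE), adjusted p = 0.0142). For SPC24 and ANAPC11 the siHHEX libraries lay wholly above siNC. After the correction SPC24 changed by 0.63 (adjusted p = 0.0254) and ANAPC11 by 0.23 (adjusted p = 0.288), so that the call of ANAPC11 was lost. CENPQ was at 9.65 and 8.04 FPKM in siNC, 4.12, 6.45 and 2.52 in siHHEX, 3.73 and 6.45 in siYAP/TAZ and 8.28 in siTEAD1/2/3/4 (log2 fold change -0.94 ± 0.294 (SE), adjusted p = 0.0379), with siHHEX 3 the lowest. Its call was lost after the correction, at -0.54 (adjusted p = 0.167), and without siHHEX 1 (-0.94) or without siHHEX 3 (-0.67). The replicate block also takes siHHEX 3 out of the siHHEX change. It gave the same change of CENPQ, -0.67, again without a call.

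The brakes on CDK1 and the G2 checkpoint, 13 genes, had 4 falls in siHHEX, against 16.9% of all tested genes, and 2 falls and 1 rise in siYAP/TAZ, against 2.13% and 6.15%. After the correction 1 of the falls in siHHEX was left, in GADD45B, and the counts in siYAP/TAZ were again 2 and 1. GADD45B, a stress-induced gene, was at 17 and 16.4 FPKM in siNC, 6.91, 7.67 and 8.86 in siHHEX, 4.98 and 5.4 in siYAP/TAZ and 8.79 in siTEAD1/2/3/4, the lowest change of the 133 genes in both knockdowns (in siHHEX log2 fold change -1.01 ± 0.132 (SE), adjusted p = 0.00384, in siYAP/TAZ log2 fold change -1.52 ± 0.145 (SE), adjusted p = 0.00203). BTG2, an antiproliferative gene, was at 13.4 and 12.3 FPKM in siNC, 19.6, 14.8 and 16.2 in siHHEX, 28.9 and 41.4 in siYAP/TAZ and 21.1 in siTEAD1/2/3/4 and rose in siYAP/TAZ (log2 fold change 1.36 ± 0.190 (SE), adjusted p = 0.0082). WEE1, the inhibitory kinase of CDK1, was at 24.4 and 22.9 FPKM in siNC, 16.2, 16.6 and 17.7 in siHHEX, 22.1 and 18.3 in siYAP/TAZ and 30.8 in siTEAD1/2/3/4 and fell in siHHEX (log2 fold change -0.47 ± 0.124 (SE), adjusted p = 0.0219), a call that was lost after the correction, at -0.32 (adjusted p = 0.128), and without siHHEX 1 (-0.44). CDKN1A (p21) was at 97.7 and 99 FPKM in siNC, 107, 97.7 and 141 in siHHEX, 150.2 and 117 in siYAP/TAZ and 97 in siTEAD1/2/3/4 and was not called in siHHEX, where its sign turned with the GC and length correction (log2 fold change 0.21 ± 0.166 (SE), adjusted p = 0.34), or in siYAP/TAZ (log2 fold change 0.43 ± 0.182 (SE), adjusted p = 0.168).

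UBE2S, which extends ubiquitin chains for the anaphase-promoting complex, was at 167 and 173 FPKM in siNC, 200.0, 185 and 210.0 in siHHEX, 104 and 88.7 in siYAP/TAZ and 113 in siTEAD1/2/3/4. It fell in siYAP/TAZ (log2 fold change -0.81 ± 0.121 (SE), adjusted p = 0.00945) and stood above siNC in siHHEX without passing. ZW10, of the checkpoint complex at kinetochores, was at 7.5 and 7.14 FPKM in siNC, 8.62, 11 and 8.93 in siHHEX, 12 and 14 in siYAP/TAZ and 12.9 in siTEAD1/2/3/4 and rose in siYAP/TAZ (log2 fold change 0.75 ± 0.154 (SE), adjusted p = 0.024). After the correction ZW10 was called higher in siHHEX as well, at 0.63 (adjusted p = 0.0168), and changed by 0.67 (adjusted p = 0.0127) in siYAP/TAZ. The siYAP/TAZ calls of BTG2, UBE2S and ZW10 were lost without siYAP/TAZ 2 (changes of 1.11, -0.70 and 0.64) or without either siNC library. Those fits leave 1 library in a group. MKI67, the proliferation marker Ki-67, was at 33.8 and 36.9 FPKM in siNC, 28.3, 27.5 and 24.8 in siHHEX, 39.5 and 36.9 in siYAP/TAZ and 43 in siTEAD1/2/3/4 and fell in siHHEX (log2 fold change -0.38 ± 0.115 (SE), adjusted p = 0.033). That call was lost after the correction, at -0.29 (adjusted p = 0.102), and without siHHEX 1 (-0.42) or without siHHEX 3 (-0.33). The replicate block also takes siHHEX 3 out of the siHHEX change. It gave the same change of MKI67, -0.33, again without a call. In siYAP/TAZ MKI67 lay at or above the higher siNC library, and its change there turned to -0.077 after the correction (log2 fold change 0.11 ± 0.126 (SE), adjusted p = 0.616).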

How the data were processed

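RNA of 8 HCT-116 libraries was sequenced on an Illumina HiSeq instrument. The authors deposited 1 FPKM value per gene and library, which they scaled by transcript length and library total. The submitters' processing notes name Trimmomatic 0.36, HISAT2 2.0.5, Cufflinks 2.2.1 and HTSeq 0.9.1. The genome build and annotation of these libraries are not given in the sources used here. The study called genes with a test on read counts, at a fold change over 2 and p under 0.05. Without read counts, limma 3.58.1 in R 4.3.3 was fitted to log2(FPKM + 1) of all 8 libraries, with a mean per group and a variance trend. The 10677 tested genes reached 1 FPKM or more in 2 or more libraries, and 9353 rows were left out. Of the 20030 rows, 27 were named by a date and 3754 were at 0 in every library. P-values were adjusted by Benjamini-Hochberg over all tested genes at 0.05. GC content and length of canonical GENCODE transcripts (GRCh38) were found for 10606 genes (99.3%), and their trend was removed per library with splines of 4 degrees of freedom. Promoters came from RefSeq. Other steps used Python 3.11.15, numpy 2.4.6, pandas 2.3.3, scipy 1.17.1 and matplotlib 3.10.9. The fits were tested on simulated data.

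The 47 genes and the other lists were chosen with earlier results of these data known. Library values are given for leading genes of each role and for the 3 lowest and 3 highest changes and up to 10 calls each way per knockdown. Of the other mitosis genes, values are given for the 2 lowest and 2 highest per knockdown and for CDKN1A, WEE1 and MKI67. HAUS7, LMNB1, MIS18A, PKMYT1 and TFDP2, also called in siYAP/TAZ, fall outside this rule. Alternatives changed the pseudocount, filter, scaling, scale of the fold, controls, correction, replicate block and libraries used.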

Additional observations from a re-analysis of the deposited data

How the results depend on the processing

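Of the 47 genes, those lower in siHHEX numbered 19, and 11 with no filter on low values, 5 with the GC and length correction, 0 with that correction and a replicate block (12 at an unadjusted p under 0.05), 1 by the study's criterion with the fold on log2(FPKM + 1) and 2 with the fold of the mean FPKM, an alternative added after seeing the data, and 0 to 24 with libraries left out. Those higher numbered 2, and 1 with no filter, 1 with the replicate block, 0 with block and correction, 0 by the study's criterion on either scale, and 0 to 4 with libraries left out. Genes lower in siHHEX than in siYAP/TAZ numbered 15, and 23 with TPM scaling, 0 with the correction and 0 with block and correction. They numbered 0 by the study's criterion (1 on mean FPKM), and 11 to 22 with a siNC or siHHEX library left out. Without siYAP/TAZ 2 most of the calls of lower genes were lost, in the set and among all tested genes. Those higher numbered 6, and 11 with median scaling, 1 with block and correction and 0 by the study's criterion on either scale. Genes lower in siYAP/TAZ numbered 5, and 2 with no filter, 12 with only the groups compared, 3 with TPM scaling, 10 with the correction, with or without the block, 0 by the study's criterion on either scale, and 0 to 7 with libraries left out. Those higher numbered 0, and 1 with only the groups compared, and 0 to 1 with libraries left out. The replicate numbers did not pair the samples (correlation of same-numbered deviations -0.0704 to 0.0215), and with the replicate block 14 genes were lower in siHHEX, all among the 19. The block takes siHHEX 3, the only library of its number, out of the siHHEX change. The median change in siHHEX was -0.30, and -0.41 with TPM scaling, -0.17 with the correction and -0.15 with block and correction. That in siYAP/TAZ was -0.16, and -0.26 with median scaling, and -0.20 to -0.085 with libraries left out. TPM scaling moved the median of all tested genes in siHHEX from -0.0055 to -0.10, and in siHHEX against siYAP/TAZ from -0.13 to -0.30. In siTEAD1/2/3/4, 1 gene was past 1.5-fold, and 3 with a pseudocount of 0.1, 3 with TPM scaling, 0 with the correction, 3 with siNC 1 as the only control, 15 at a smaller fold limit and 0 at 2-fold. The median there, 0.034, reversed to -0.028 with median scaling, -0.045 with the correction and -0.011 with siNC 2 as the only control. AURKB in siHHEX reversed to -0.049 with block and correction, CDKN1A in siHHEX to -0.095 with the correction and -0.20 with block and correction, and MKI67 in siYAP/TAZ to -0.077 with either. Over 560 pairs of a named change and an alternative, from 35 named changes, 436 kept their direction and side of the threshold, 116 fell short of it, 3 passed it and 5 reversed. Beyond the fewer libraries or genes that an alternative uses, the cause was not tested. Depth is unknown, so no limit on low values can be given.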
